A study of Malus domestica with 2 samples.

Results

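The gene models examined here encode the proteins of the ribosome, cytosolic and organellar, in pedicels of apple (Malus domestica), the stalks by which each fruit hangs from its cluster. A gene model was taken when its description held the words ribosomal protein, or ribosomal followed by S or L and a number, and when it had at least 1 mapped sequence or stood on one of the authors' sheets of differing genes. This gave 215 of the 63541 gene models of the deposited table, 195 of them with a sequence and 20 found on a sheet without one. The cutoff of 1 sequence is a low one. There were 95 members with exactly 1 sequence, 42 of them in the lateral and 53 in the central library, and 363 further gene models with such a description had 0 sequences and were on no sheet. The members were thus selected on their summed counts and on presence in the sheets, so both are described here and not tested.

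The groups were the lateral pedicel and the central pedicel of the cultivar Saika, called self-abscising in the series title, that is, dropping young fruits by itself, with 1 library each and no treatment named. The question named there is how early fruit drop relates to gene activity in the pedicel. Both libraries were made from mRNA and sequenced on a Roche GS-FLX pyrosequencer, and the age of the fruits and the number of trees or pedicels pooled are not given in the labels used. No difference between the libraries has a replicate check. The column headers name the mapped set as contigs, so a count is taken here as a number of assembled sequences, not of raw reads. A share below is a share of such sequences and need not equal a share of the RNA. Intervals, limits and tests take each sequence as an independent draw, which was not checked for assembled sequences. In all, 18368 sequences were mapped to 13457 gene models in the lateral library, and 18483 to 13544 in the central library. A count of 0 allows a share of up to 0.0163% in the lateral and 0.0162% in the central library. As RNA came from bulk pedicel tissue, fewer cells of a type and less RNA per cell cannot be told apart.

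A plant cell makes its proteins on ribosomes of 3 kinds, in the cytosol, in the plastids and in the mitochondria. Each ribosome has a large subunit, which joins the amino acids, and a small subunit, which reads the messenger RNA, and their proteins are named L and S after the subunit. Cytosolic ribosomal proteins are encoded in the nucleus by small gene families of near-identical copies, and organellar ribosomes resemble those of bacteria and take most of their proteins from nuclear genes. Copies of one protein may share sequences in mapping, so the count of a single copy is uncertain.

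Ribosomal proteins together took a similar share of both libraries. The members held 174 sequences in the lateral library, 0.947% of it (95% exact interval 0.812% to 1.10%), and 184 in the central library, 0.996% (0.857% to 1.15%). The log2 ratio of these shares, lateral over central, was -0.07, with an interval from -0.38 to 0.24 that includes 0. The interval covers only the counting error of independent draws, which assembled sequences may not be. Of the members' sequences 87.9% were uniquely mapped in the lateral library and 90.8% in the central library, beside 89.4% and 89.3% over all gene models. The members with a sequence were short, with a median gene length of 664 bases against 1362 for the other gene models with a sequence. Per length they stood higher, with a median of 89.8 RPKM over the 140 members detected in the lateral library and 87.1 RPKM over the 149 detected in the central library, against 48.7 and 49.0 RPKM for the other detected gene models. RPKM divides a count by the gene's length and the library's total, so 1 sequence on a short gene gives a high value.

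No member had more than 4 lateral or 5 central sequences. The member with most assembled sequences was MDP0000207901, of the S9 family of small-subunit proteins, with 4 lateral and 3 central, or 354.1 and 263.9 RPKM. It was also the highest per length when both libraries were averaged, followed by MDP0000557465 of the eukaryotic L28e family, with 2 sequences and 240.4 and 238.9 RPKM. MDP0000291397, of the bacterial-type L19 family, had 1 lateral and 5 central sequences (Fisher exact p = 0.219). Another L19 gene model, MDP0000139992, had 2 in each library. MDP0000141581, of the L6 family, had 2 lateral and 3 central sequences, and so had MDP0000272485, of the S16 family. The reverse, 3 lateral and 2 central sequences, was counted for MDP0000305066 of the L27 family, MDP0000297746 of the S8 family and MDP0000396774, a cytosolic L18a. Of these genes only the L18a model was on a sheet, and it was on the CP sheet although its count was higher in the lateral library.

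**Figure D1:**
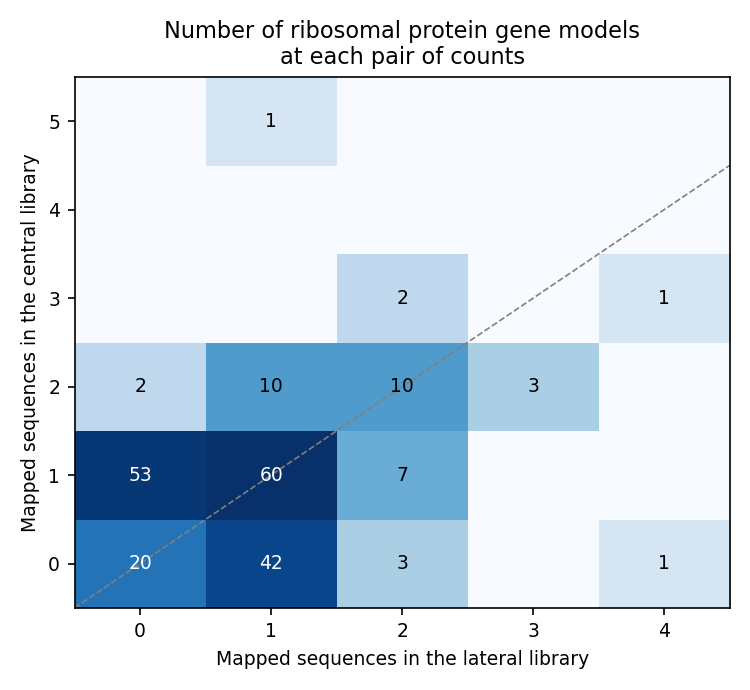
Number of ribosomal protein gene models at each pair of counts, with mapped sequences in the lateral library on the horizontal axis, mapped sequences in the central library on the vertical axis and equal counts along the dashed line. Most members lie at 0 or 1 sequence in each library, with 60 at 1 in each, 42 at 1 lateral and 0 central, and 53 at 0 lateral and 1 central.

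Most members differed by 1 sequence or not at all. Of the 195 with a sequence, 57 had more lateral sequences, 68 had more central sequences and 70 had equal counts. The equal counts were 35.9% of the members, against 28.3% of the other gene models with a sequence. Among the 65 members with 2 sequences in all, 60 had 1 in each library, which is 92.3%, against 76.5% of the 5697 other gene models with 2 sequences. The share was set beside gene length. Up to 500 bases it was 100% of 19 members and 80.3% of other gene models, from there to 1000 bases 90% of 40 and 85.1%, and above 1000 bases 83.3% of 6 and 72.6%. How these shares compare beyond counting error was not tested. With 0.5 added to each count, 46 members were at least 2-fold higher in the lateral library, 23.6%, where the share over all gene models with a sequence was 27.9%. In the other direction 56 members were at least 2-fold higher in the central library, 28.7%, where the share over all gene models was 28.3%. Of these, 46 had no central sequence and 55 had no lateral sequence, so the call mostly records which library had the sequence. With a pseudocount of 1 the 56 became 3, since 1 sequence against 0 then falls just short of 2-fold in that direction.

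The per-gene test compared the libraries, not the kinds of pedicel. A two-sided Fisher exact test with Benjamini-Hochberg adjustment was run over the 24 gene models with at least 10 sequences, and it called 0% of them. None of the members (0) reached 10 sequences, so none was tested at that minimum. Over all 18337 gene models with a sequence it again called 0%, with 4 at an unadjusted p under 0.05, or 0.0218%, and 0 of them members. edgeR's negative binomial exact test was run without a minimum, at assumed biological coefficients of variation of 0.2 and 0.4. It gave 0 of all 18337 gene models at an unadjusted p under 0.05, and so 0 members. The smallest p of a member was that of MDP0000183523, with 4 lateral and 0 central sequences (Fisher exact p = 0.0617, adjusted p = 1). It is annotated as a ribosomal L11 methyltransferase, an enzyme that modifies a ribosomal protein and is not one itself. In the authors' deposited table, Kal's Z-test on RPKM has an FDR under 0.05 for 121 members, 62.1% of those with a sequence, beside 67.6% of all gene models with a sequence. Of these members 55 were higher in the lateral and 66 in the central library. That test calls most genes with unequal counts, including many with 1 sequence against 0.

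The members were then divided by the kind of ribosome. By the words of the descriptions 68 members were counted as cytosolic, 4 plastid and 3 mitochondrial, and 140 held no such word. For the cytosol the words were 40S, 60S or an L or S number ending in e. These also took in S30Ae (MDP0000398785), the L14b/L23e family shared by all ribosomes and an organellar L23 (MDP0000741562), so that class is not purely cytosolic. The cytosolic members by words held 46 lateral and 49 central sequences, the plastid members 2 and 5, the mitochondrial members 3 and 2, and the rest 123 and 128. A fuller division, made after the descriptions were seen, used the Arabidopsis gene matched on the sheets, and elsewhere whether the named family occurs in eukaryotic ribosomes, in bacterial ones or in all. By it the 85 cytosolic members held 61 lateral sequences, 0.332% of the library (0.254% to 0.426%), and 60 central sequences, 0.325% (0.248% to 0.418%). The 12 plastid members held 11 and 12. Bacterial-type, mitochondrial and other organellar families, 43 members, held 36 lateral and 43 central sequences, and the 51 members of families shared by all ribosomes held 48 and 47. The interval of the log2 ratio included 0 for each of these classes. Large-subunit members held 111 lateral and 115 central sequences, and small-subunit members 47 and 49.

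**Figure D2:**
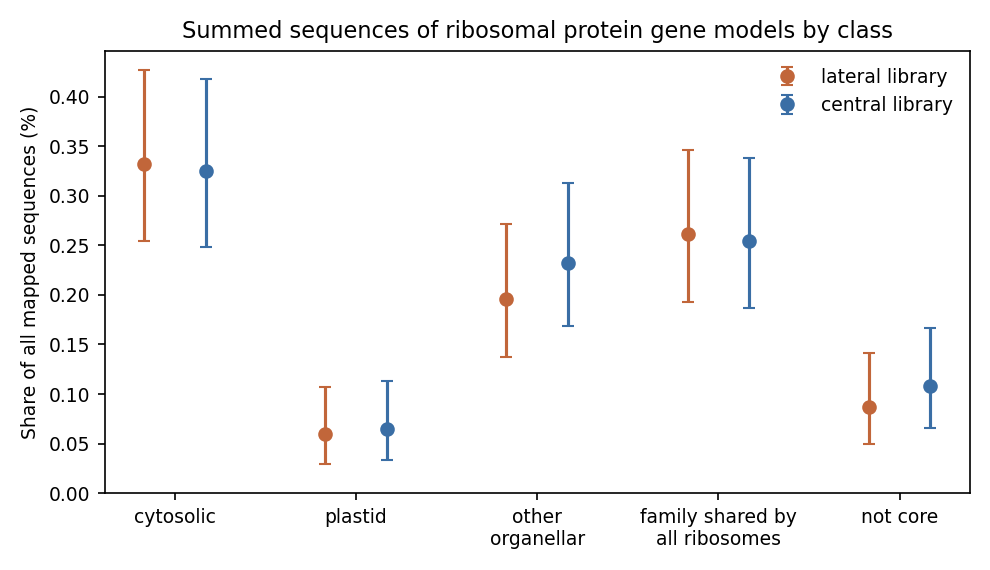
Share of all mapped sequences of a library, in percent, held by each class of ribosomal protein gene models, with the lateral library left of the central library and bars for the 95% exact interval, which covers counting error only. The intervals of the libraries overlap in every class shown; cytosolic members take 0.332% of the lateral and 0.325% of the central library.

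Most families with many sequences had near-equal sums in both libraries. The 5 gene models of the S9 family held 8 lateral and 8 central sequences, the 5 of L24e held 5 and 5, and the 3 of the S4e N-terminal domain held 4 and 4. The 3 gene models of the L19 family held 3 lateral and 8 central sequences, and the 4 of the L14 family, which is the eukaryotic one, held 5 and 2. The families were named by their summed counts after these were seen, and no test was made of them.

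The authors' sheets of differing genes listed ribosomal proteins in both pedicels. The LP sheet, named for the lateral pedicel, held 29 members among its 741 entries, and the CP sheet, named for the central pedicel, held 39 among 844. These are 3.91% and 4.62% of the entries. The sheets themselves hold 1.17% and 1.33% of all gene models, a background that the choice of members through the sheets makes unfit for comparison. The lean towards CP depends on which description was searched. The words of the sheets found 26 LP and 39 CP members, whereas the words of the whole table found 21 LP and 14 CP members. Among the 170 members found by the whole table with a sequence, 15 or 8.82% were on the LP sheet, where 3.17% of all gene models with a sequence were, and 8 or 4.71% were on the CP sheet, where 3.57% were. Of the CP members 25 were recognised only on the sheet, against 8 of the LP members. In the authors' deposited table the FDR, from the NOISeq program per the header, was listed at 0 for 13 LP and 18 CP members, and how it was computed is not known here. Summed over the entries, the LP members held 18 lateral and 17 central sequences and the CP members 24 and 27. The 147 members on no sheet held 132 and 140.

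Proteins of the cytosolic large subunit had 12 entries on LP and 16 on CP. With the words of the whole table alone they were 9 on LP and 5 on CP. The lowest deposited FDR was a tie at 0 among 13 LP members, and those with more sequences were named first. They included L13a (MDP0000283022), L5 (MDP0000010907) and L7a (MDP0000300095), each with 1 lateral and 1 central sequence. L6 (MDP0000246810) also had 1 in each, and a second L6 copy on the LP sheet, MDP0000653246, had none. The acidic stalk protein P1/P2 (MDP0000199150) had 0 lateral and 1 central sequences, although its sheet is named for the lateral pedicel. Other LP entries had no sequence, among them L37a (MDP0000141009) and 2 of the smallest ribosomal proteins. These were L29 (MDP0000799741), with a gene length of 186 bases, and L41 (MDP0000326031), with 163 bases. The deposited FDR of P1/P2, L37a, L29 and L41 was also 0. On CP 18 members were tied at an FDR of 0, and again those with more sequences were named first. They included L10 (MDP0000300246), L15 (MDP0000149936), L27a (MDP0000200882), L36 (MDP0000156587) and L36a (MDP0000210879). Each of these had 1 lateral and 1 central sequence. L30 (MDP0000329639) and L24 (MDP0000527520) also had 1 in each. The CP entries L35a, L37, P2 and one of the L15 copies (MDP0000198720) had none. The FDR of L30, L35a and L37 was also 0, so the tie held entries with and without sequences. For most of these entries the count table and the sheets gave different pictures, since equal counts stood beside a listing as differing.

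Small-subunit proteins of the cytosol had 2 entries on LP and 10 on CP, but 1 on LP and 2 on CP with the words of the whole table alone. The LP entries were S23 (MDP0000327325), a protein of the decoding centre, with 0 lateral and 1 central sequences, and S28 (MDP0000803797), with none in either library. The CP entries were S5, S8, S12, S14, S17, S21, S27, SA and 2 copies of S27a, the protein made as a fusion with ubiquitin. S5 (MDP0000273575), S14 (MDP0000163790) and SA (MDP0000231146) each had 1 lateral and 1 central sequence. S17 (MDP0000865687) had 1 lateral and 0 central sequences, and so had one S27a copy, MDP0000501162, while S27 (MDP0000155887) had 0 lateral and 1 central. Of the 10 CP entries, 1 thus had more central and 2 had more lateral sequences. Members of the large subunit, organellar ones included, numbered 21 on LP and 20 on CP, and those of the small subunit 6 on LP and 13 on CP. The authors chose these entries on the same libraries, and the difference between the sheets was not tested. Gene models with heat shock words, searched as a sign of RNA handling and stress and including DnaJ-domain proteins, had 4 LP and 12 CP entries. They held 120 lateral and 135 central sequences over 115 gene models, and their part in the CP entries was not tested. These words also took in entries described on the sheets as homeodomain-like (MDP0000241185 and MDP0000277813 on CP) or RAD-like (MDP0000335890 on LP). The list is thus not of heat shock proteins alone.

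**Figure D3:**
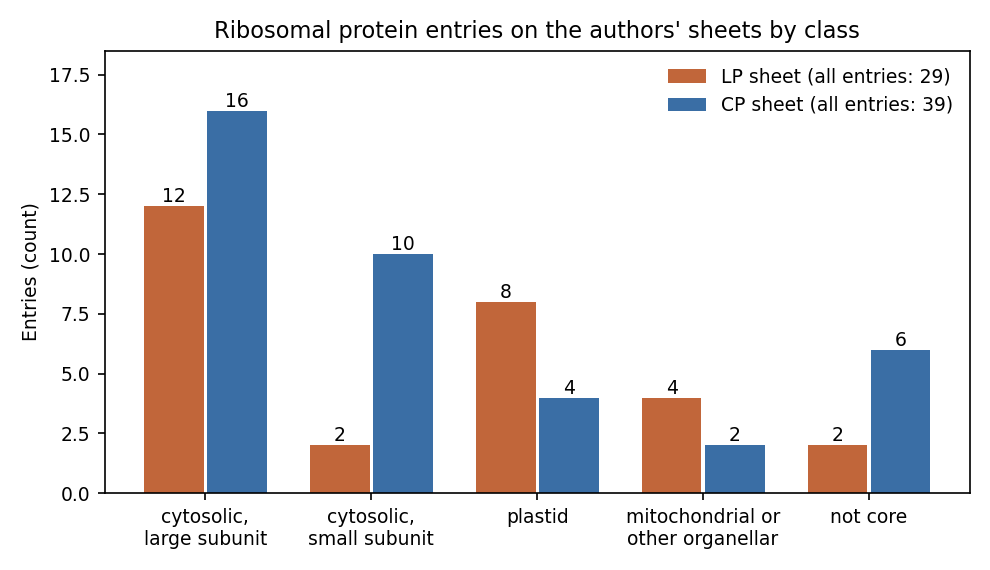
Entries on the authors' sheets by class of ribosomal protein, with the LP sheet (29 entries) left of the CP sheet (39 entries) in each pair of bars. Plastid proteins have 8 LP and 4 CP entries, and small-subunit proteins of the cytosol 2 LP and 10 CP entries; the 1 entry on each sheet whose class was not assigned is not shown.

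By the class of the Arabidopsis match, made after the descriptions were seen, plastid ribosomal proteins had 8 entries on the LP and 4 on the CP sheet, or 27.6% of the LP and 10.3% of the CP members. By the words of the descriptions they had 2 on each sheet. Of the entries by class, 5 on LP and 3 on CP were also found by the words of the whole table. The difference between the sheets was not tested. The LP entries were the large-subunit proteins L4, L11, L13, L15, L24 and L34, the small-subunit protein S9, and PSRP4, a plastid-specific protein of the small subunit. L4 (MDP0000260618), which lines the tunnel through which the new protein leaves, had 2 lateral and 2 central sequences. L13 (MDP0000364447), L15 (MDP0000637627), L34 (MDP0000855100) and PSRP4 (MDP0000796276) had 1 in each library. S9 (MDP0000164974) and L24 (MDP0000845959) had 1 lateral and 0 central sequences, and L11 (MDP0000186794), part of the stalk base where elongation factors bind, had 0 lateral and 1 central. On the CP sheet L12 (MDP0000767733), L28 (MDP0000236557) and S6 (MDP0000495488) had 1 in each library, and a second copy of L11, MDP0000238515, had 0 lateral and 2 central sequences. Every plastid entry had a sequence, whereas 20 of all 68 entries had none. In the counts the plastid proteins on the sheets did not lean to a library, with 2 of 12 higher in the lateral, 2 higher in the central and 8 equal.

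Markers of chloroplast-bearing cells were on both sheets too. Of 88 gene models annotated as light-harvesting, photosystem or rubisco proteins, 29 had a sequence, with 25 lateral and 22 central sequences in all, and 18 were on the LP sheet and 9 on the CP sheet. Subunit O of photosystem I and subunit R of photosystem II on LP, and subunits F and E-2 of photosystem I on CP, had 0 sequences in either library. Entries with unequal counts went both ways on each sheet. On LP the rubisco small chain entry had 0 lateral and 1 central sequences. Of the LP copies of light-harvesting complex II subunit B1, MDP0000601491 had 1 lateral and 0 central and MDP0000309425 had 0 and 1. On CP, PsbP-like protein 2 (MDP0000203627) had 0 lateral and 1 central, and chlorophyll A/B binding protein 1 (MDP0000656152) had 1 and 0. The part of these markers in the plastid ribosomal entries was not tested.

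Mitochondrial and other organellar entries were few, 4 on LP and 2 on CP. On the LP sheet the mitochondrial S14 (MDP0000619099) and an organellar L23 (MDP0000741562) had 1 lateral and 0 central sequences, and an L13 (MDP0000732600) had 1 in each. An S6-like protein (MDP0000248364) had none. On the CP sheet the mitochondrial S9 (MDP0000586151) had 1 lateral and 2 central sequences and an L34 (MDP0000401312) had 1 in each. Of the organellar S9 proteins, the plastid one was on LP, with 1 lateral and 0 central sequences, and the mitochondrial one on CP, with 1 and 2. The whole S9 family held 8 lateral and 8 central sequences, and a division of it by organelle was not tested.

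Copies of one protein were listed on opposite sheets in several cases. Of the Arabidopsis genes matched by members, 27 on LP and 35 on CP, 5 were matched on both sheets. L5, which binds the small 5S RNA of the large subunit, had one copy on each, and in the authors' deposited table the log2 ratio was -2.00 for the LP copy MDP0000010907 and 2.07 for the CP copy MDP0000163856. The LP copy had 1 lateral and 1 central sequence and the CP copy had none. L34 had an LP copy without a sequence, MDP0000142785, and a CP copy, MDP0000129561, with 2 lateral and 1 central sequences. L38 had an LP copy with 0 lateral and 1 central sequences, MDP0000593964, and a CP copy without any, MDP0000653200. Plastid L11 had more central sequences for both its copies, described above. The last was ClpS, an adaptor of the plastid Clp protease whose description mentions L12, with 0 lateral and 1 central sequences for the LP copy MDP0000269988 and the same for the CP copy MDP0000262682. In none of these 5 pairs did both copies have more sequences in the library of their own sheet.

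The authors' deposited table of log2 ratios held 7 members among its 215 genes. Its header states the ratio as lateral to central, but the sign was negative for all 113 LP genes and positive for all 78 CP genes in it, so the values are printed as deposited and not read as a direction. Plastid L11 (MDP0000186794) had -2.66, cytosolic L14 (MDP0000265859) -2.63 and L5 (MDP0000010907) -2.00 in the authors' deposited table, all LP entries. On the CP side L39 (MDP0000363784) had 3.16 in the authors' deposited table, the EF1B subunit MDP0000626096 had 2.14, L5 (MDP0000163856) had 2.07 and elongation factor 2 (MDP0000428265) had 1.95. In counts L14 had 1 lateral and 0 central sequences, and L39 had 0 and 1, which is 280.3 RPKM for its gene length of 193 bases. L11 had 0 lateral and 1 central sequences, although its sheet is named for the lateral pedicel. Of the others L5 on LP had 1 in each, and the remaining 3 genes had 0 in both libraries, so their ratios cannot be traced to the deposited counts. Nor can those of L14 and L11, whose counts were opposite beside ratios of -2.63 and -2.66. How the ratios were computed is not known here.

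**Figure D4:**
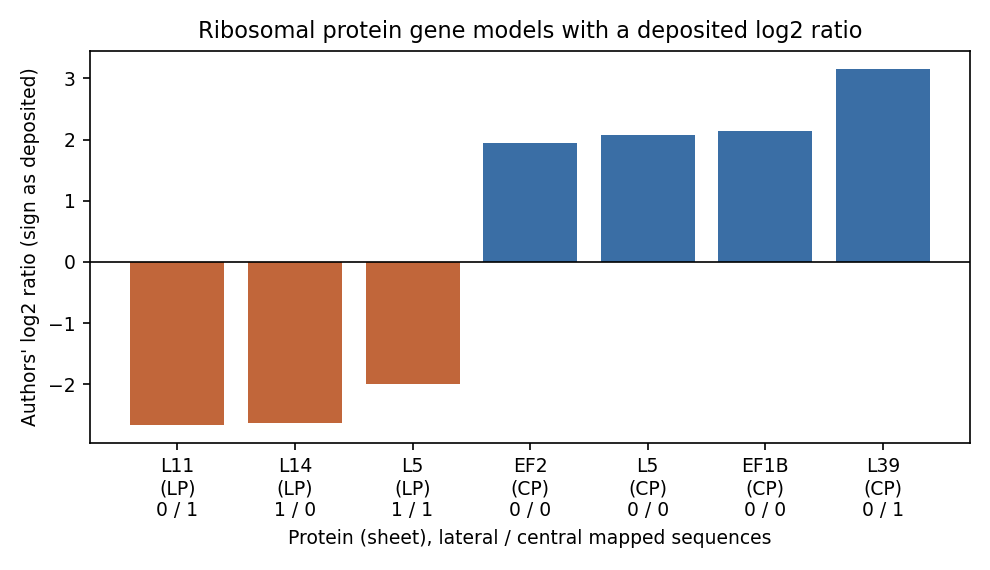
The authors' deposited log2 ratio, with its sign as deposited, for the 7 ribosomal protein gene models that have one, LP entries left of CP entries; under each name stand the sheet and the lateral and central counts. The 3 LP entries lie between -2.66 and -2.00 and the 4 CP entries between 1.95 and 3.16, while no count exceeds 1.

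In counts, the members of each sheet were split between both directions. Of the 29 LP members 6 had more lateral and 5 more central sequences, 11 were equal and 7 had none. Of the 39 CP members 4 had more lateral and 6 more central sequences, 16 were equal and 13 had none. Over the whole sheets 233 of 741 LP entries had more lateral and 116 more central sequences, and 137 of 844 CP entries had more lateral and 287 more central sequences. Whether the members differ from the other entries in this was not tested.

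Not every member is a structural part of the ribosome. Of the 215, 22 are other proteins or carry a description that ribosomal and other proteins share. The 2 gene models of the L11 methyltransferase, on no sheet, held 6 lateral and 2 central sequences. On the CP sheet they were 4 copies of EF1B, the exchange factor of elongation factor 1, together with elongation factor 2 and ClpS. On the LP sheet they were ClpS and MDP0000299239, an alanine tRNA ligase-like protein with 1 lateral and 0 central sequences. Of the EF1B copies, MDP0000903484 had 1 sequence in each library, MDP0000279981 had 0 lateral and 1 central, and the remaining 2 had none. On the other hand, 3 entries carry the gene ontology term for a structural constituent of the ribosome without being found by the words. They are ubiquitin extension protein 1 (MDP0000287424) on LP, with 1 lateral and 1 central sequence, R-protein L3 B (MDP0000897417) on CP, with 0 lateral and 2 central sequences, and an RNA-binding protein on CP. By that term the sheets hold 27 LP and 32 CP entries.

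Other genes of translation had few entries on either sheet, apart from elongation factors on CP. Elongation factors had 1 LP and 10 CP entries, and 7 of the 11 are also members here through the shared EF1B/S6 and EF-G descriptions. The others were 3 copies of eukaryotic elongation factor 5A-1 and an elongation factor Tu family protein, all on CP. Not all the entries are elongation factors by class. The LP entry is the organellar S6-like protein (MDP0000248364), and the CP entries include the plastid S6 (MDP0000495488). Initiation factors had 0 LP and 3 CP entries, among them subunit 3G1, with 1 lateral and 2 central sequences, and the beta subunit of factor 2, with 1 in each library. Aminoacyl-tRNA synthetases, which load tRNAs with amino acids, had 3 and 4, ribosome biogenesis factors 1 and 1, and release and recycling factors 1 and 1. In counts, elongation factors held 13 lateral and 17 central sequences over 14 gene models, initiation factors 34 and 42 over 33, synthetases 37 and 40 over 34, biogenesis factors 20 and 18 over 14, and release and recycling factors 7 and 6 over 6. Of the 33 initiation factors with a sequence 4 were at least 2-fold higher in the lateral and 7 in the central library, and of the 14 elongation factors 1 and 5, where the shares over all gene models with a sequence were 27.9% and 28.3%. Of the 61 gene models of the elongation factor list, 9 are members here. The words for poly(A) binding proteins found 1 gene model without a sequence, and those for the receptor for activated C kinase found 0. The words histone, cyclin and proliferating cell nuclear antigen, searched for dividing cells, found 6 entries on each sheet, and 94 lateral and 107 central sequences over 98 gene models. These words also took in F-box proteins described as cyclin-like, such as MDP0000264736 with 4 sequences in each library, and a mitochondrial carrier on LP, so the sums are not those of histones and cyclins alone.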

How the data were processed

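mRNA of 1 lateral and 1 central pedicel library was sequenced on a Roche GS-FLX, per the labels' protocols. Per the file headers, the authors deposited counts of total and uniquely mapped sequences of trimmed contigs per gene model, with RPKM computed from them. The p-value and FDR columns deposited by the authors come from Kal's Z-test in the whole table and from NOISeq on the CP and LP sheets, per the file headers. The log2 ratios deposited by the authors are stated as lateral over central in their first line. Which aligner, assembler and gene models the authors used is not stated in the labels or headers. A further 13 columns of values of the libraries were not used.

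The members, word lists and classes were chosen with earlier results of these data known. The class of a member came from its Arabidopsis match, or else its family, from general knowledge. Log2 ratios from counts are lateral over central, per library total, with 0.5 added to each count. With 1 library per group, edgeR's quasi-likelihood test could not be fitted. Fisher exact tests were used, and edgeR 4.0.16 (R 4.3.3) gave an exact test with an assumed spread and TMM factors. Recovery of simulated differences by the Fisher test was required only at a depth far above that of these libraries. It therefore does not show that the test can find differences at the depth here. Intervals are 95% Clopper-Pearson. They and the limits of 3 sequences for a count of 0 cover counting error only. Like the tests, they take assembled sequences as independent draws, which was not checked. Named were the 8 members with most sequences, all with a deposited ratio, per sheet the 6 of lowest FDR and the 4 with most sequences, proteins on both sheets, and organellar entries, of which all 18 are given although the rule stops at 12. Ties in FDR were broken by the number of sequences. Names outside this were chosen after their values were seen. For other translation genes, entries on the sheets are named in part. Of the marker lists, words for xylem and secondary wall genes found 6 LP and 1 CP entries. They held 16 lateral and 11 central sequences over 13 gene models, and their part in the ribosomal protein entries was not tested. Words for pollen and anther found 5 LP and 6 CP entries, most of them expansins caught by the domain name pollen allergen, so the list is no measure of pollen. Of the member identifiers 0 matched the reference gene table, so no coordinates are given. Alternatives covered the sequences counted, pseudocount, minimum, scaling, unit, fold, test, annotation searched and how entries were counted. The software was scipy 1.17.1, pandas 2.3.3 and numpy 2.4.6 under Python 3.11.15, with figures by matplotlib 3.10.9.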

Additional observations from a re-analysis of the deposited data

How the results depend on the processing

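Of 120 alternative values for the results above, 99 stayed within the interval or within 1.5 times the count given and 21 did not. Some of these could not move, so the tally does not measure robustness. Other proteins were left out only by the words kinase, methyltransferase, acetyltransferase, biogenesis and processing, which removed no sheet entry. By class, 2 LP and 6 CP entries are not core ribosomal proteins, and these stayed in. The edgeR test at the minimum of 10 sequences tested 0 members. Wide intervals also held very different values, such as that of the mitochondrial ratio by words, from -2.53 to 4.18. The log2 ratios of sums call no direction, since their intervals include 0, and 5 of 26 alternatives had the other sign. With at least 2 sequences the ratio was 0.02 for all members, against -0.07, 0.01 for cytosolic members by words, against -0.08, -0.99 for mitochondrial members, against 0.59, and 0.07 for members without such a word, against -0.05. By class the cytosolic ratio was 0.03. The mitochondrial ratio was 3.86 by RPKM. Those by class of the Arabidopsis match, by the gene ontology term, by the whole table's words for the sheets and by edgeR without a minimum were chosen after the data were seen, 33 values in all. Members at least 2-fold higher in the lateral library became 4, from 46, with at least 2 sequences and 4 at 4-fold, and those higher in the central library became 3, from 56, with at least 2 sequences, 3 with a pseudocount of 1 and 2 at 4-fold. Single sequences make up these calls, by construction. Cytosolic entries by words became 6 on LP, from 10, and 11 on CP, from 19, when entries without a sequence were left out. Plastid entries, 2 on each sheet by words, were 8 on LP and 4 on CP by the Arabidopsis match. With the whole table's words the LP entries were 21, against 29, and the CP entries 14, against 39, since that table describes many of them by no ribosomal word, so the larger number was then on LP. By these words plastid entries by class were 5 on LP, against 8, cytosolic large-subunit entries 5 on CP, against 16, and small-subunit entries 1 on LP, against 2, and 2 on CP, against 10. Leaving out entries without a sequence gave 7 large-subunit entries on LP and 10 on CP, and 1 small-subunit entry on LP and 6 on CP. Members with more sequences in the library of their sheet became 0 on LP and 2 on CP with at least 2 sequences, from 6 each. By RPKM they were 17 on LP, because equal counts give a higher RPKM in the smaller lateral library. Members called stayed at 0 in the Fisher and edgeR tests run at each minimum, and depth limits every call, since no member reached 10 sequences. No paired analysis was possible because each group has 1 library.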
